A study of Mus musculus with 4 samples.

Results

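Solute carriers are membrane proteins that move small molecules across membranes, some by facilitated diffusion and others by coupling the substrate to a gradient of sodium, protons or another ion. Their families are numbered by sequence, and together they set which sugars, amino acids, ions, metals, vitamins and osmolytes enter or leave a cell or an organelle. In tumour cells the glucose, lactate and amino acid carriers are the best known. The carriers described here are the remaining ones that were expressed. They were the gene symbols of the form Slc, family number, letter a and member number, and they were selected on their measured level, a 4-library mean of 1 FPKM or more. FPKM is a count of sequenced fragments divided by transcript length and by the depth of the library. All Slc25a symbols, which are mitochondrial carriers, and 16 named glucose, lactate, iron and amino acid carriers were left out. Of 344 symbols of this form among 24346 in the tables, 47 were Slc25a symbols, and 281 remained. Of these, 101 reached the threshold and 180 did not, 72 of them listed at 0 in all 4 libraries.

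RNA from MC38 cells, a mouse colon carcinoma line, was sequenced in 4 libraries, of which 2 carry the label wild type (WT) and the other 2 the label Arid5a knockout (KO). KPC cells, also part of the series design, were not analysed here. The labels do not give the way the knockout was made, the number of clones, or whether replicates came from separate cultures. Estimated depth was 10300000 to 15300000 fragments per library. Arid5a, an RNA-binding protein that stabilises mRNAs, stood at 0.225 and 0.124 FPKM in WT-labelled libraries and reached 2.16 and 1.77 FPKM in the KO-labelled libraries. The targeted gene therefore goes against the labels, and all directions given here follow the labels, not a checked genotype. None of 13 epithelial markers reached a mean of 1 FPKM, and Epcam, Cdx2, Cldn7 and Lgr5 were listed at 0 in all 4 libraries.

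The threshold was set on the mean of the same 4 libraries that are compared. The members just above it were Slc38a9, Slc16a5 and Slc4a3, with means of 1.05, 1.09 and 1.26 FPKM, and the symbols just below it were Slc6a12, Slc27a3 and Slc5a1, with 0.915, 0.867 and 0.831 FPKM. No member had a WT mean under 1 FPKM, and 3 had a KO mean under 1 FPKM, Slc14a1 (0.891), Slc38a9 (0.793) and Slc11a1 (0.995). These 3 passed through their WT level alone, while Slc6a12, with a KO mean of 1.69 FPKM and a WT mean of 0.137 FPKM, did not pass, so counts of falls and rises among members depend in part on the threshold. The symbol pattern took in 5 members that are not carriers. They are the scaffold proteins Slc9a3r1 and Slc9a3r2, the adaptor Slc4a1ap, the Slc7a6 neighbour Slc7a6os and the pseudogene Slc2a4rg-ps. From general knowledge, 48 members act mainly at the cell surface, 29 mainly in organelles such as the Golgi, endosomes or lysosomes, and 19 could not be placed. A name such as plasma membrane carriers thus covers only part of the list.

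The members' summed level was 1718 and 1742 FPKM for the libraries labelled WT, against 1669 and 1687 FPKM for those labelled KO. The 10 most abundant members held 39.8% to 40.1% of it. The zinc carrier Slc39a7 of the endoplasmic reticulum and Golgi was highest, at 125.9, 128.3, 119.7 and 118.3 FPKM in WT replicates 1 and 2 and KO replicates 1 and 2. It was followed by the heme carrier Slc48a1 (89.1, 92.1, 99.0 and 100.7 FPKM), the nucleoside carrier Slc29a1 (92.7, 96.5, 80.9 and 82.7 FPKM) and the taurine carrier Slc6a6 (82.3, 85.0, 73.0 and 74.6 FPKM). Below them came the surface zinc importer Slc39a1, with a mean of 66.3 FPKM, and the cationic amino acid exchanger Slc7a6, with 49.4 FPKM. The 2 libraries of a group lay close together for these abundant genes. In all, 5 members reached 50 FPKM, 55 reached 10 FPKM and 29 stayed under 5 FPKM.

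KO-labelled libraries were set against WT-labelled libraries with limma on log2(FPKM + 1). Calls were made at an adjusted p (Benjamini-Hochberg) under 0.05, taken over the 10827 genes that averaged 1 FPKM or more. Of the 101 members, 14 were called higher (13.9%) and 28 lower (27.7%) in the KO-labelled libraries. Among all genes tested 47.6% were called, 24.4% higher and 23.3% lower. With FPKM divided by each library's sum, the members' counts were 9 higher and 40 lower. The median log2 change over all genes tested was then -0.0552. With no filter on low values, where 9.3% of 24346 symbols were called, the members' counts were 6 and 6. Lower calls numbered 15 when WT replicate 1 was left out and 14 when WT replicate 2 was, and higher calls 8 when WT replicate 2 or KO replicate 2 was. The median log2 change was -0.09 over the members and 0.01 over all genes tested. The middle part of the members' changes, from the first to the third quartile, ran from -0.22 to 0.11. The groups did not overlap for 82 members (81.2%, against 77.5% of all genes tested), 30 higher and 52 lower in the KO-labelled libraries. Among all genes tested these shares were 39.4% and 38.2%.

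**Figure D1:**
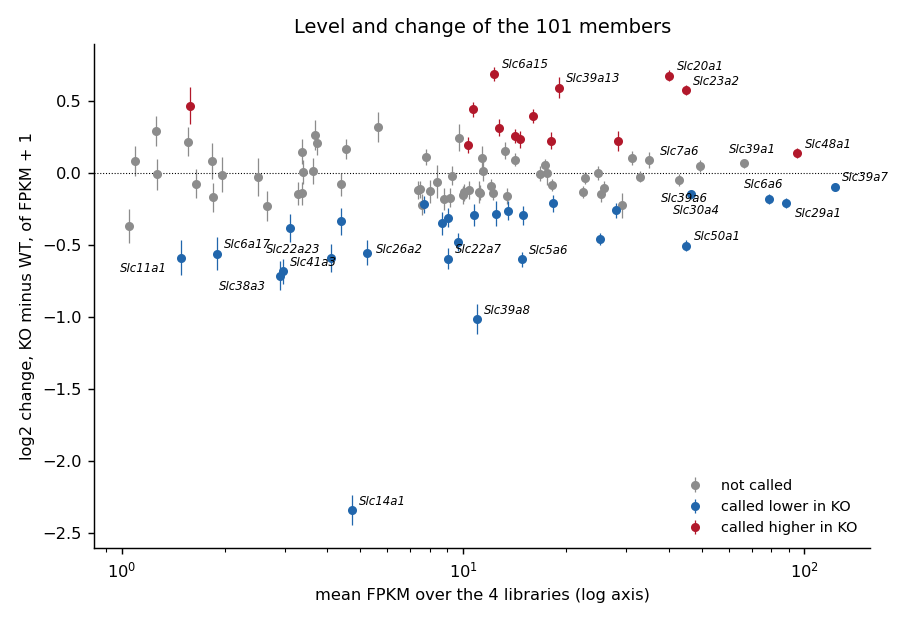
Mean level over the 4 libraries (FPKM, log axis) against the log2 change of FPKM + 1, KO minus WT, for the 101 members, with standard errors as bars and calls in colour. Most members lie within 0.5 of 0, and Slc14a1 lies apart at -2.34.

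Changes of at least 0.5 on the log2 scale were called for 4 members that rose (3.96%, against 5.61% of all genes tested) and 11 that fell (10.9%, against 6.15%). The members that rose were Slc6a15, Slc20a1, Slc39a13 and Slc23a2. The members that fell were Slc14a1, Slc39a8, Slc38a3, Slc41a3, Slc5a6, Slc22a7, Slc22a23, Slc11a1, Slc6a17, Slc26a2 and Slc50a1. They carry different substrates, from urea and zinc to biotin and sulfate. Slc14a1 and Slc11a1 passed the threshold of 1 FPKM through their WT level alone, so the count of falls depends in part on that threshold. With no filter on low values, 9 of these 15 lost their calls: Slc41a3 (adjusted p = 0.0513), Slc39a8 (0.0611), Slc22a7 (0.0653), Slc38a3 (0.0772), Slc39a13 (0.0785), Slc26a2 (0.083), Slc22a23 (0.0913), Slc11a1 (0.111) and Slc6a17 (0.122).

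**Figure D2:**
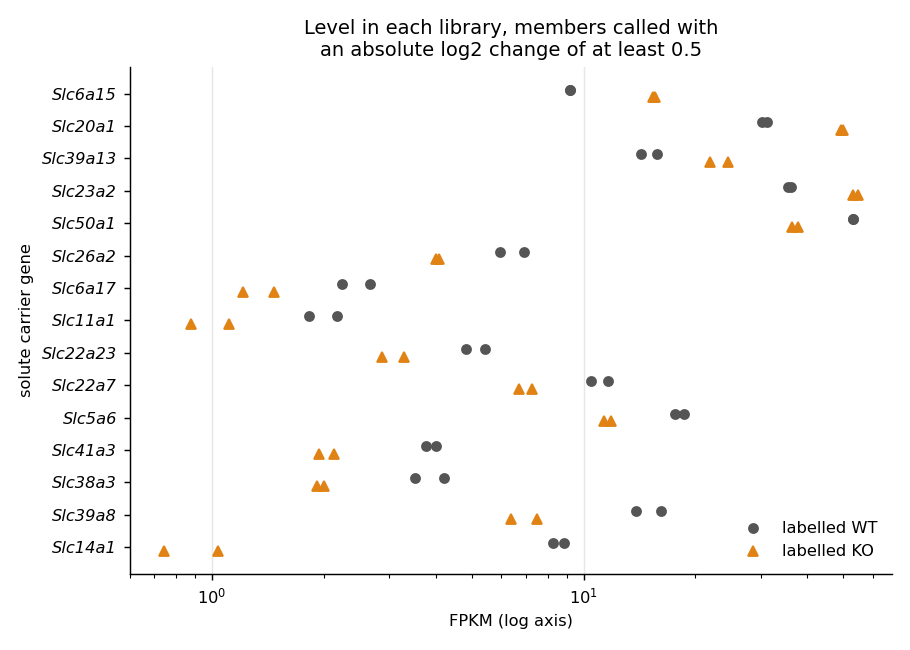
Level in each library (FPKM, log axis) of the 15 members called with an absolute log2 change of at least 0.5, with circles for libraries labelled WT and triangles for those labelled KO. Slc14a1 spans the widest range, from 8.85 and 8.29 FPKM to 0.744 and 1.04 FPKM.

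The sequences before the starts of 4 of these genes are shown. For each of the 4, RefSeq (GRCm38.p6) lists a start within 500 bases of the GENCODE 5′ end. Some members with larger called changes are not shown, and whether each of them had such a start is not given here. Each run covers 250 bases up to the start, 5′ to 3′ on the gene's strand. Capitals mark matches, on either strand, to the core of the hypoxia response element (ACGTG), the metal response element (TGCACNC or TGCGCNC), the composite element of C/EBP and ATF factors (TGATGNAA), the interferon-stimulated response element or the antioxidant response element (TGANNNNGC).
Slc39a8, chr3:135825029-135825278, plus strand: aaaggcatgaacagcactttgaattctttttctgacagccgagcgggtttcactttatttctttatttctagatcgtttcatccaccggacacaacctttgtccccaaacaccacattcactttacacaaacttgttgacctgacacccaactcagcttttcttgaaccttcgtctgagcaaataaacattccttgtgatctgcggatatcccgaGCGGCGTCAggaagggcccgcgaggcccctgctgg
Slc5a6, chr5:31048563-31048812, minus strand: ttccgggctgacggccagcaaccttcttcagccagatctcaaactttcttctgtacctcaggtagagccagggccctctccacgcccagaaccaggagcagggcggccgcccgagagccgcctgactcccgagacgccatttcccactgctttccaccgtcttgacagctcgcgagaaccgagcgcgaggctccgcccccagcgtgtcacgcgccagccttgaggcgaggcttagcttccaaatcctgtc
Slc20a1, chr2:129198523-129198772, plus strand: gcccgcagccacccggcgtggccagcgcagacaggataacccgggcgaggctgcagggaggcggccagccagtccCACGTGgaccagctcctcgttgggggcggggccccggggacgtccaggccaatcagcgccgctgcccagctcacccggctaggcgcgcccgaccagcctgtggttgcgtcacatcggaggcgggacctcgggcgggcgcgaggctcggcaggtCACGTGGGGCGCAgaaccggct
Slc39a13, chr2:91070316-91070565, minus strand: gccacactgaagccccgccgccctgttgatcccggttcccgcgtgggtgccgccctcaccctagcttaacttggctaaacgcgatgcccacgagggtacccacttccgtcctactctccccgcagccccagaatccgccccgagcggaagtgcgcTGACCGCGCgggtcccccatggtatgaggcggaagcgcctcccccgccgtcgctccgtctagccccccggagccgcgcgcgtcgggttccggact

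The Slc20a1 run held ACGTG at 2 places, each as the palindrome CACGTG, so that it matched on both strands, at bases -175 to -170 and -22 to -17 counted from the start. The second is followed directly by a match to the metal response element at bases -16 to -10. Slc39a8 and Slc39a13 each held 1 match to the antioxidant response element, and the Slc5a6 run held none of the 5. Over the 76 members with a RefSeq promoter, ACGTG occurred in 27.6%, against 26.2% of the 8319 tested genes with one and 18.5% of all 27025 genes with one. The metal response element core occurred in 39.5%, 34.3% and 23.8% of the same sets, and the antioxidant core in 48.7%, 41.7% and 38.7%. The C/EBP-ATF element occurred in 3.95%, 2.28% and 3.91%, and the interferon element in 0 of 76 members, 3.16% and 3.46%. A match of letters is a description and not a binding site.

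Metal carriers formed the largest class, with 22 members. The Slc39 family brings zinc and related metals into the cytosol, the Slc30 family moves zinc out of it, Slc41 carries magnesium and Slc31 copper. In the libraries labelled KO, 2 of the 22 rose, 8 fell and 12 were not called, with a median log2 change of -0.11. Of all genes tested, 24.4% were called higher and 23.3% lower. Slc39a8, an importer of zinc and manganese (ENSMUSG00000053897, chromosome 3, 135825279 to 135888572, GRCm38, plus strand), measured 16.2 and 13.9 FPKM in WT-labelled libraries, against 7.48 and 6.40 FPKM in KO-labelled libraries. The groups did not overlap. It was 2.17-fold lower by the means, a log2 change of -1.02 ± 0.10 (SE; adjusted p = 0.00148). The magnesium carrier Slc41a3 was at 4.001 and 3.77 FPKM against 1.94 and 2.14 FPKM, a log2 change of -0.68 ± 0.086 (SE; adjusted p = 0.00283). Opposite in direction was Slc39a13, a zinc carrier of the Golgi and vesicles (chromosome 2, 91061791 to 91070417, minus strand), at 14.3 and 15.8 FPKM against 21.9 and 24.5 FPKM. Its log2 change was 0.59 ± 0.075 (SE; adjusted p = 0.00292). The exons of Slc39a13 overlap those of Psmc3 on the opposite strand, which has a mean of 164 FPKM and a log2 change of 0.20 (adjusted p = 0.00305), and the handling of strand is not given in the sources used here.

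Slc11a1, a divalent metal carrier of macrophage phagosomes, was at 2.17 and 1.82 FPKM against 1.11 and 0.877 FPKM, a log2 change of -0.59 ± 0.12 (SE; adjusted p = 0.0132). It passed the threshold of 1 FPKM through its WT level alone. Leaving out WT replicate 1 ended the call (adjusted p = 0.0577). Among macrophage markers, Cd68 was at 6.14 and 5.80 FPKM against 1.03 and 1.67 FPKM, and the more abundant Cd14 lay the other way, at 9.18 and 10.1 FPKM against 12 and 13.8 FPKM. Adgre1 and Itgam were listed at 0 throughout. Lyz2 was at 0.843 and 1.2 FPKM against 0.572 and 0.103 FPKM, and Csf1r at 0 and 0.0231 FPKM against 0.053 and 0.167 FPKM. The 16 leukocyte markers summed to 19.3 and 23.3 FPKM in WT-labelled libraries and to 15.1 and 16.5 FPKM in KO-labelled libraries. Only Cd14, Cd68 and S100a8 of them reached a mean of 1 FPKM, 8 were listed at 0 throughout, and Ptprc, the pan-leukocyte marker, was at 0.0655 and 0.0854 FPKM against 0 and 0. A list of 9 fibroblast and endothelial markers summed to 15.9 and 14.7 FPKM against 11.6 and 12.3 FPKM. Of the 3 with a mean of at least 1 FPKM, Dcn was at 5.13 and 4.53 FPKM against 0.613 and 0.993 FPKM. Pdgfra was at 7.06 and 6.47 FPKM against 6.49 and 6.95 FPKM, and Pdgfrb at 2.98 and 3.15 FPKM against 3.51 and 3.33 FPKM. The part of either list in the result was not tested.

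Smaller metal changes were those of Slc31a2 (-0.34), Slc41a2 (-0.22), the manganese and zinc importer Slc39a14 (-0.21), the vesicular zinc carrier Slc30a4 (-0.15), Slc39a7 (-0.09) and Slc30a9 (0.23). Each was called with all 4 libraries. Slc31a2, Slc41a2 and Slc39a7 were called in none of the 4 fits that left out a library, with an adjusted p of up to 0.142, 0.142 and 0.167. Slc39a14 was called without KO replicate 2 but in no other such fit (up to 0.146), Slc30a4 without KO replicate 1 but in no other (up to 0.0806), and Slc30a9 without WT replicate 1 but in no other (up to 0.14). The surface exporter Slc30a1, which zinc induces in many cells, was at 1.35 and 1.20 FPKM against 1.33 and 1.19 FPKM. Metallothioneins, the cytosolic zinc-binding proteins, are no carriers but buffer the same metal. Mt1, at 289.9 and 308.3 FPKM in WT-labelled libraries, reached 516.5 and 521.1 FPKM in KO-labelled libraries, with a log2 change of 0.79 ± 0.036 (SE; adjusted p = 0.000182), and Mt2 rose by 0.37. The zinc-sensing factor Mtf1 was not called (-0.03, adjusted p = 0.755).

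Phosphate carriers rose, and a sulfate carrier fell. Slc20a1, a sodium-phosphate importer of the cell surface (ENSMUSG00000027397, chromosome 2, 129198764 to 129211616, plus strand), measured 30.1 and 31.3 FPKM in WT-labelled libraries, against 49.3 and 50.01 FPKM in KO-labelled libraries. That is 1.62-fold higher by the means, a log2 change of 0.68 ± 0.037 (SE; adjusted p = 0.000281). Its paralog Slc20a2 rose from 13.4 and 14.1 FPKM to 18.7 and 18.1 FPKM (0.40 ± 0.050, SE; adjusted p = 0.00297). For both phosphate importers each KO-labelled library lay above each WT-labelled library. Slc26a2, a sulfate carrier on chromosome 18, changed from 5.95 and 6.89 FPKM to 4.09 and 3.999 FPKM (-0.55 ± 0.086, SE; adjusted p = 0.0056). The fourth member of the class, Slc26a11, was at 1.34 and 1.40 FPKM against 1.64 and 1.87 FPKM and was not called (0.22, adjusted p = 0.13). The phosphate exporter Xpr1 was not called either (-0.05, adjusted p = 0.611).

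Vitamin and heme carriers went both ways, with 3 of 7 rising and 1 falling, against 24.4% and 23.3% of all genes tested. The ascorbate importer Slc23a2 (chromosome 2, 132052496 to 132145108, minus strand) stood at 36.1 and 35.6 FPKM against 53.0 and 54.7 FPKM, a log2 change of 0.58 ± 0.035 (SE; adjusted p = 0.000374). Slc19a2, a thiamine importer, stood at 13.1 and 12.6 FPKM against 15.5 and 15.5 FPKM (0.26), and lost its call when WT replicate 2 was left out (adjusted p = 0.0629). Slc48a1 rose by 0.14, but was called in no fit that left out a library other than WT replicate 2 (adjusted p of up to 0.0903), and not with FPKM divided by the library sum (0.128). In the other direction, Slc5a6, the sodium-coupled importer of biotin and pantothenate (chromosome 5, 31036036 to 31048924, minus strand), measured 17.6 and 18.6 FPKM against 11.4 and 11.8 FPKM. Its log2 change was -0.60 ± 0.053 (SE; adjusted p = 0.00105). Exons of Slc5a6 overlap those of Atraid on the opposite strand, which has a mean of 27.4 FPKM and a log2 change of -0.58 (adjusted p = 0.00652). The folate carriers Slc19a1 (25.1, 24.4, 23.9 and 25.6 FPKM) and Slc46a1 and the riboflavin carrier Slc52a2 were not called.

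**Figure D3:**
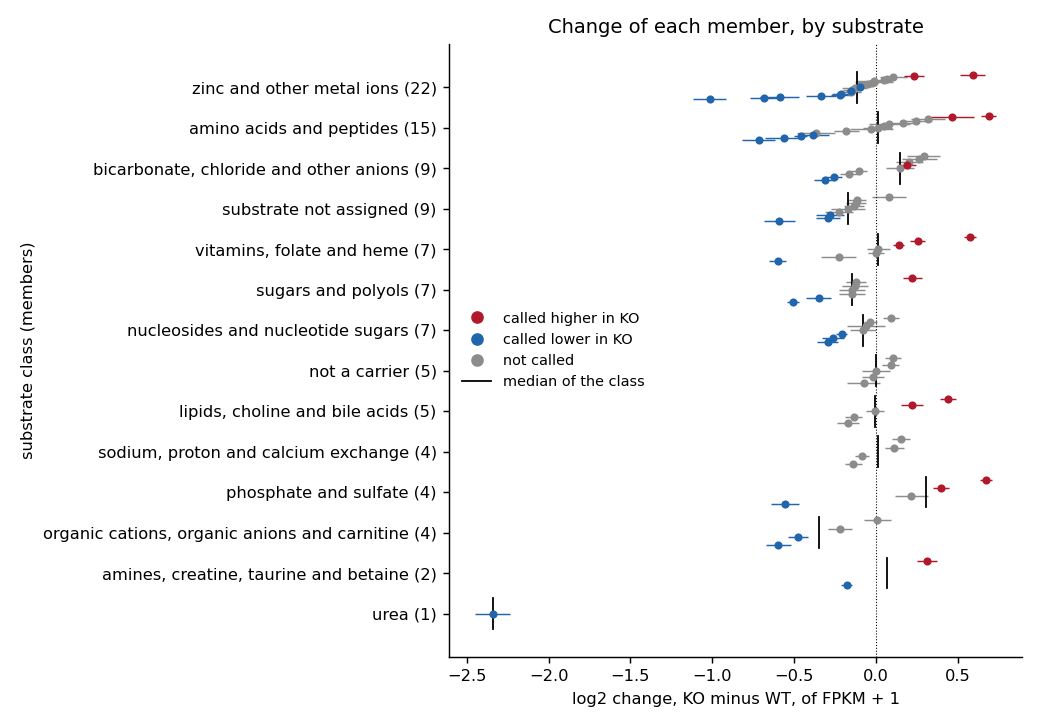
Log2 change of FPKM + 1, KO minus WT, of each member with its standard error, by substrate class, with the number of members in parentheses and the class median as a black line. Metal carriers have a median of -0.11, against -0.09 over all members. The 4 phosphate and sulfate carriers have a median of 0.31, with 3 above 0 and 1 below.

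The urea carrier Slc14a1 on chromosome 18 changed most among the members. WT-labelled libraries held 8.85 and 8.29 FPKM, and KO-labelled libraries 0.744 and 1.04 FPKM, which is 9.62-fold lower by the means. The log2 change was -2.34 ± 0.11 (SE; adjusted p = 0.000182). Adding 1 to the FPKM makes this smaller than the ratio of means. Depending on the transcript, these levels stand for about 180 to 469 fragments in a library labelled WT and 14 to 41 in one labelled KO. Slc14a1 passed the threshold of 1 FPKM through its WT level alone. No other member changed by more than 1.02 in size on the log2(FPKM + 1) scale.

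Among 15 amino acid and peptide carriers outside the named exceptions, 2 rose, 4 fell and 9 were not called, with a median of 0.01. Of all genes tested, 24.4% were called higher and 23.3% lower. Slc6a15, an importer of branched-chain amino acids and proline (ENSMUSG00000019894, chromosome 10, 103367783 to 103419377, plus strand), was at 9.22 and 9.22 FPKM against 15.4 and 15.6 FPKM. It rose by 0.69 ± 0.048 (SE; adjusted p = 0.000538), the largest rise among the members on the log2(FPKM + 1) scale. By the ratio of means it was 1.68-fold higher, and Slc38a6, at 1.40 and 0.956 FPKM against 2.05 and 1.94 FPKM, was 1.70-fold higher. Slc38a3, an importer of glutamine and histidine (chromosome 9, 107650634 to 107669530, minus strand), measured 3.52 and 4.22 FPKM against 2.00 and 1.92 FPKM, a log2 change of -0.72 ± 0.10 (SE; adjusted p = 0.00418). Its relative Slc38a10 fell from 29.0 and 29.6 FPKM to 20.7 and 21.4 FPKM (-0.46 ± 0.041, SE; adjusted p = 0.00109). The vesicular carriers Slc6a17 and Slc17a7, best known from neurons, were low and lower in the libraries labelled KO. Slc6a17 was at 2.24 and 2.67 FPKM against 1.21 and 1.47 FPKM (-0.56 ± 0.12, SE; adjusted p = 0.0132), a call lost when WT replicate 2 was left out (0.0629).

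Slc17a7 changed by -0.38 and Slc38a6 by 0.47, and each was called in only 1 of the 4 fits that left out a library, Slc17a7 without WT replicate 2 and Slc38a6 without WT replicate 1 (adjusted p of up to 0.112 and 0.104 in the others). Slc38a9, an arginine sensor of the lysosome, missed the threshold (-0.37 ± 0.12, SE; adjusted p = 0.0521), as did the proton-coupled carrier Slc36a4 (0.32 ± 0.10, SE; adjusted p = 0.0526). The exchanger Slc7a6 was at 47.8 and 49.2 FPKM against 51.8 and 48.6 FPKM, so its groups overlapped. Its small change of 0.05 turned to -0.02 with FPKM divided by the library sum. Slc15a4, a lysosomal peptide carrier linked to innate immune signalling, was not called (-0.18, adjusted p = 0.104).

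Of 7 sugar and polyol carriers, 1 rose, 2 fell and 4 were not called, with a median of -0.14. Of all genes tested, 24.4% were called higher and 23.3% lower. Slc50a1, a sugar carrier of the SWEET family (chromosome 3, 89268246 to 89270570, minus strand), measured 53.1 and 53.0 FPKM against 36.4 and 37.7 FPKM. Its log2 change was -0.50 ± 0.036 (SE; adjusted p = 0.00056), the largest fall among the 10 most abundant members. The lysosomal hexose carrier Slc2a6 fell by 0.35, a call lost when WT replicate 2 (adjusted p = 0.0871) or KO replicate 1 (0.0724) was left out. Slc37a4, which brings glucose-6-phosphate into the endoplasmic reticulum, rose by 0.22 and was called in only 1 of the fits that left out a library, the one without KO replicate 2 (up to 0.144 in the others). The myo-inositol importer Slc5a3 was not called (-0.12, adjusted p = 0.159). Its exons overlap those of Mrps6 on the same strand, which has a mean of 144 FPKM and a log2 change of 0.44 (adjusted p = 0.00063).

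Organic ion carriers of the Slc22 family had 4 members with an assigned substrate, of which 2 fell and 0 rose. Of all genes tested, 23.3% were called lower and 24.4% higher. The organic anion carrier Slc22a7 (chromosome 17, 46432183 to 46438457, minus strand) stood at 10.5 and 11.7 FPKM against 6.70 and 7.25 FPKM, a log2 change of -0.60 ± 0.076 (SE; adjusted p = 0.00301). Slc22a4, which imports ergothioneine, fell from 11.4 and 11.4 FPKM to 8.29 and 7.59 FPKM (-0.48 ± 0.062, SE; adjusted p = 0.00323). Its paralogs on chromosome 11 were not called. The carnitine importer Slc22a5 was at -0.22 (adjusted p = 0.0552) and Slc22a21 at 0.01 (adjusted p = 0.942). These paralogs are alike in sequence, so reads could be split among them. Slc22a23, an orphan of the family, was at 4.83 and 5.43 FPKM against 2.86 and 3.29 FPKM (-0.59 ± 0.095, SE; adjusted p = 0.00613). It led the 9 members with no assigned substrate, of which 3 fell and 0 rose. The other falls there were Slc12a9 (-0.29) and Slc10a3 (-0.28), each called only without KO replicate 1 among the fits that left out a library (adjusted p of up to 0.121 and 0.16 in the others).

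Nucleoside and nucleotide sugar carriers fell in 3 of 7 cases and rose in 0, against 23.3% and 24.4% of all genes tested. Their median was -0.08. The equilibrative nucleoside carrier Slc29a1 changed by -0.21 ± 0.034 (SE; adjusted p = 0.00672), with the groups separated at the levels given above. Slc29a2 was at 16.8 and 16.4 FPKM against 14.1 and 12.6 FPKM (-0.29), and the nucleobase carrier Slc43a3 at 15.3 and 14.4 FPKM against 12.7 and 11.6 FPKM (-0.26). Both were called without KO replicate 1 but in no other fit that left out a library (adjusted p of up to 0.0907 and 0.124). The Golgi nucleotide sugar carriers Slc35a1, Slc35a2 and Slc35a3 were not called, with changes from -0.06 to 0.09. Related carriers of the Slc35 subfamilies b to f have another letter in their symbols and are no members. Of 14 tested, 7 fell and 1 rose, against 23.3% and 24.4% of all genes tested, with a median of -0.22. Slc35b1, which brings ATP into the endoplasmic reticulum, was at 66.1 and 63.3 FPKM against 47.1 and 47.8 FPKM (-0.44, adjusted p = 0.000858).

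Of 9 carriers of bicarbonate, chloride and other anions, 1 rose and 2 fell, against 24.4% and 23.3% of all genes tested. Their log2 changes ran from -0.31 to 0.29, and those of the 4 sodium-proton exchangers from -0.14 to 0.16. The potassium-chloride cotransporter Slc12a7, which exports salt from swollen cells, was at 9.82 and 10.4 FPKM against 7.60 and 8.27 FPKM (-0.31, adjusted p = 0.0146). It was called without KO replicate 2 but in no other fit that left out a library (up to 0.0878). The anion exchanger Slc4a2 fell by 0.26, a call lost when WT replicate 1 (adjusted p = 0.0675) or WT replicate 2 (0.0571) was left out. Slc12a2, the sodium-potassium-chloride importer, rose by 0.19 and was called in no fit that left out a library (up to 0.162). All 4 sodium-proton exchangers were not called, with Slc9a8 at 0.16 (adjusted p = 0.0697) as the largest change. The kinases Stk39 and Oxsr1, which phosphorylate the cation-chloride cotransporters, both rose, Stk39 from 9.78 and 9.83 FPKM to 14.3 and 14.7 FPKM (0.52 ± 0.049, SE; adjusted p = 0.00123) and Oxsr1 by 0.28. Of 7 tested genes of that kinase pathway, these were the only ones called, where 47.6% of all genes tested were called.

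Genes that act beside the carriers are no members. For the counts given here, 23.3% of all genes tested were called lower and 24.4% higher. Fxyd5, an ion transport modulator, was at 152.8 and 163.9 FPKM against 83.4 and 87.6 FPKM (-0.88, adjusted p = 0.000248). Carbonic anhydrases, which supply bicarbonate and protons, fell in 2 of 6 cases, Car6 by 1.41 and Car5b by 0.80. Major facilitator domain proteins fell in 4 of 13 cases and rose in 1, with Mfsd6 at -0.93, Mfsd12 at -0.66 and Mfsd3 at -0.51, the last losing its call when WT replicate 2 was left out (adjusted p = 0.0695). Among 6 carrier chaperones and Slco carriers, 1 rose and 3 fell. Slco4a1, an organic anion carrier, rose from 66.4 and 67.0 FPKM to 121.1 and 123.8 FPKM (0.87), and Arl6ip5, which restrains glutamate carriers, fell by 0.64.

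Lipid and choline carriers rose in 2 of 5 cases and fell in 0, against 24.4% and 23.3% of all genes tested. Slc44a2, a choline carrier, was at 8.89 and 8.91 FPKM against 12.6 and 12.3 FPKM (0.44 ± 0.051, SE; adjusted p = 0.00221). The fatty acid carrier Slc27a1 rose by 0.22, and was called without WT replicate 2 but in no other fit that left out a library (adjusted p of up to 0.155). Of the osmolyte and creatine carriers, Slc6a8, the creatine importer, rose from 11.7 and 10.8 FPKM to 13.9 and 14.5 FPKM (0.32), a call lost when WT replicate 2 (adjusted p = 0.0635) or KO replicate 2 (0.0531) was left out. The taurine carrier Slc6a6 changed by -0.18, a call lost when WT replicate 2 was left out (0.0592). None of the 5 members that are no carriers was called, and their changes ran from -0.07 to 0.11, with the scaffold Slc9a3r1 at 30.9, 29.1, 33.0 and 31.7 FPKM.

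Position was not used in choosing the members, and 3 of the 4 called rises of at least 0.5, Slc20a1, Slc23a2 and Slc39a13, lie on chromosome 2. Of 832 genes tested on that chromosome, 64.2% were called, 54.8% higher and 9.38% lower, and their median log2 change was 0.23. Called rises of 0.5 or more made up 16.5% of them and falls of that size 2.88%. The 12 members there had a median of 0.08, and 3 were called higher and 3 lower. Those 3 falls were Slc2a6, Slc43a3 and Slc30a4. Off chromosome 2, 11 of 89 members rose and 25 fell, with a median of -0.10. Over all genes tested, with chromosome 2 included, 24.4% were called higher and 23.3% lower. Calls were one-sided on other chromosomes too. On chromosome 12, which holds Slc38a6, 41.8% were called higher and 8.79% lower. The shares were 14.0% and 40.6% on chromosome 13, which holds Slc22a23 and Slc12a7. They were 15.3% and 35.7% on chromosome 11, which holds Slc22a4 and Slc38a10, and 12.8% and 39.5% on chromosome 15. The part of chromosome position in these changes was not tested.

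**Figure D4:**
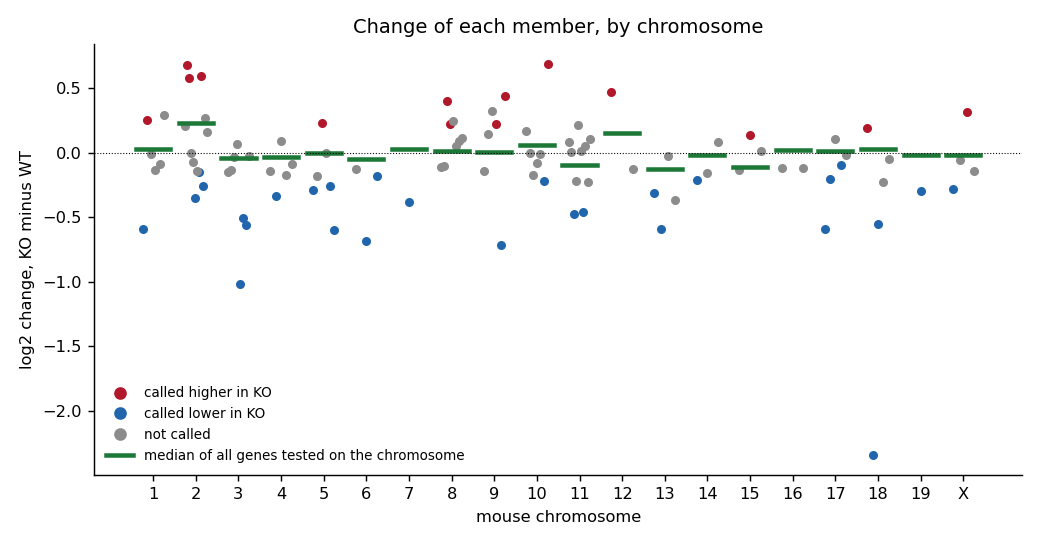
Log2 change, KO minus WT, of each member by mouse chromosome, coloured by call, with the median of all genes tested on the chromosome as a green bar. The bar of chromosome 2 stands at 0.23, and 3 of its 12 members lie above 0.5.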

How the data were processed

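The authors deposited FPKM values for 24346 gene symbols in each of 4 libraries. Cufflinks 2.2.1, TopHat2 2.0.13, SAMtools 0.1.19, Bowtie2 2.2.3 and the build mm10 are named, per the submitters' processing notes. Their settings, annotation and strand handling are not given in the sources used here. Per the labels' protocols, libraries were made with a stranded mRNA kit. FPKM values are not counts, so no count model was used. No library total is in the tables. An estimate came from the smallest FPKM values, taken as mostly 1 fragment each, set against the lengths of 134 genes with 1 GENCODE M21 transcript, and it bounds precision only roughly.

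After adding 1 and taking log2, genes averaging under 1 FPKM were dropped, and limma 3.58.1 in R 4.3.3 (lmFit, eBayes with trend, no block) was fitted to the other 10827, with two-sided tests and Benjamini-Hochberg adjustment. The fit was also run on simulated data drawn from its own variance model, which cannot show whether that model holds for these libraries. Nothing in the labels says that the 2 libraries of a group came from separate cultures, so p-values measure only the spread between these libraries, which may be technical. Fewer cells of a type and less RNA per cell cannot be told apart. All 101 members matched 1 gene of GENCODE M21 (GRCm38), and exons of 13 overlap those of another gene with a mean above 1 FPKM. For Slc5a3 with Mrps6 and Slc10a3 with Ubl4a the overlap is on the same strand. Members and lists were chosen with earlier results of these data known. Substrates and membranes were assigned from general knowledge. Named members were those called with an absolute change of at least 0.5, the 10 most abundant and the largest change in each class. The 3 on each side of the threshold and the listed non-members called at 0.5 or more were also named, and other genes were added after their values were seen. Alternatives covered pseudocounts, filters, scalings, moderation, the replicate block and leaving out each library. Python 3.11.15 with pandas 2.3.3, numpy 2.4.6 and matplotlib 3.10.9 was used. Some genes of the lists are not reported here.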

Additional observations from a re-analysis of the deposited data

How the results depend on the processing

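The counts of members called higher (14) and lower (28) were within 1.5 times under other pseudocounts (0.1, 0.5 and 2), a filter of 5 FPKM, median-ratio scaling, quantile normalisation and other moderation of variances. With no filter they were 6 and 6. With FPKM divided by the library sum, 9 were higher, and the members' median was -0.152 in place of -0.0896. The median over all genes tested moved as well, to -0.0552 from 0.00558. Leaving out each library gave 8 to 10 higher and 14 to 22 lower, with medians from -0.096 to -0.0821. The alternatives were run gene by gene for 29 members, those called at 0.5 or more, the 10 most abundant and the largest change in each class. Their log2 changes kept their sign in these fits, except Slc7a6, which was at -0.0166 with FPKM divided by the library sum. The 15 members called at 0.5 or more kept their calls in 208 of 219 alternative fits and lost them in 11, of which 9 were the fit with no filter. The cause was not tested.

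With the replicate number as a block, 14 were higher and 25 lower, and Slc39a7 was no longer called (adjusted p = 0.0642). Same-numbered libraries deviated together with r = 0.138 across all genes tested and r = 0.284 across the members. With 2 numbers and no label that says what they share, this is not evidence of pairing. Depth limits the members under 2 FPKM, where a change rests on few fragments.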

Other observations

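Below the threshold of 1 FPKM, 108 of 180 carrier symbols were above 0 in at least 1 library. In the fit with no filter, in which 9.3% of all 24346 symbols were called, 5 of the 180 were called higher and 3 lower in KO-labelled libraries. They are named here after their values were seen. Slc6a12, an importer of the osmolytes betaine and GABA, had 0.166 and 0.108 FPKM in WT-labelled libraries, against 1.53 and 1.86 FPKM in KO-labelled libraries (log2 change 1.24 ± 0.086, SE; limma, adjusted p = 0.0311). Its WT levels stand for about 1 to 6 fragments per library, so the 12.4-fold ratio of means is imprecise. Slc15a3, a lysosomal peptide carrier, went from 0.0304 and 0.0397 FPKM to 0.455 and 0.491 FPKM, and Slc27a6, a fatty acid carrier, from 0 and 0.071 FPKM to 0.691 and 0.586 FPKM. Slc2a10, a glucose carrier, was listed at 0 in each WT-labelled library and at 0.391 and 0.298 FPKM in the KO-labelled libraries. Slc5a12 was at 0 against 0.0198 and 0.0179 FPKM, so its call rests on very few fragments.

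Slc14a2, the paralog of Slc14a1 on the same chromosome, was lower too, at 0.579 and 0.472 FPKM against 0.036 and 0.0649 FPKM. The sodium-glucose importer Slc5a1 was at 1.17 and 1.14 FPKM against 0.522 and 0.493 FPKM. Slc43a2 differed little, at 0.409 and 0.404 FPKM against 0.349 and 0.354 FPKM.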
